A study of Mus musculus with 12 samples.

Results

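The T cell receptors of the brain's covering membranes, the meninges, were compared with those of the brain tissue itself, the parenchyma. All 6 single-cell T cell receptor libraries of the series, out of 12 samples, entered the comparison: 2 from meninges (1 per genotype) and 4 from parenchyma (2 per genotype). The other samples, which hold gene expression, were not analysed here. Cells were immune cells sorted on CD45 from C57BL/6 mice that carried the 5xFAD transgenes (5xFADTg) or did not (NonTg). The 5xFAD line expresses mutant human amyloid precursor protein and presenilin in neurons from the Thy1 promoter and is used as a model of amyloid deposition. Tissue was compared within genotype, so a NonTg meninges library was set against the NonTg parenchyma libraries and a 5xFADTg one against the 5xFADTg. The labels give neither the age or sex of the mice nor the animals behind a library. The p-values therefore measure only the spread between these libraries, which may be technical.

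A conventional T cell carries 1 receptor made of a beta chain (TRB) and an alpha chain (TRA), and each chain is assembled from V and J gene segments (with a D segment in TRB) whose ends are trimmed and joined with added bases. The joint lies in the CDR3 loop, the part of the receptor that meets the antigen. Cells with the same CDR3 pair are therefore taken as 1 clone, and a repeated clone as the product of T cell division. Meninges and parenchyma both hold resident T cells, and some T cells, such as invariant natural killer T (iNKT) and mucosal-associated invariant T (MAIT) cells, carry an almost fixed alpha chain.

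A cell counted as paired when it had exactly 1 productive TRB and at least 1 productive TRA. A clonotype was a TRB CDR3 nucleotide sequence together with the CDR3 sequence of the TRA with most unique molecular identifiers (UMIs, tags that count original transcripts). The paired cells numbered 1063 and 766 in NonTg parenchyma 1 and 2, 1206 and 1453 in 5xFADTg parenchyma 1 and 2, 349 in the NonTg meninges and 370 in the 5xFADTg meninges, 5207 in all. They formed 606, 449, 657, 784, 286 and 326 clonotypes in the same order, 3108 in all. The libraries held 15827899 to 26710709 reads and 49997 to 128700 UMIs over their contigs. No contig of the gamma, delta or immunoglobulin genes was listed in any library. Between 0 and 4 cell barcodes were common to any 2 libraries, and 0 of those had the same TRB.

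The largest clonotypes of each meninges library are shown because they are followed into the parenchyma below. The CDR3 is written 5′ to 3′, with the bases that neither the V nor the J segment of the reference accounts for in capitals.
NonTg meninges, largest clonotype, TRB of TRBV13-2 and TRBJ1-2: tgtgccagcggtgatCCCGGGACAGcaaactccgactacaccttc
NonTg meninges, largest clonotype, TRA of TRAV7D-4 and TRAJ26: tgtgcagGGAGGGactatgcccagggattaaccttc
5xFADTg meninges, largest clonotype, TRB of TRBV1 and TRBJ2-5: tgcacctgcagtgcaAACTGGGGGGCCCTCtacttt
5xFADTg meninges, largest clonotype, TRA of TRAV10D and TRAJ42: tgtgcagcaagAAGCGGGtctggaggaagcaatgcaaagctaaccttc
5xFADTg meninges, second clonotype, TRB of TRBV29 and TRBJ1-1: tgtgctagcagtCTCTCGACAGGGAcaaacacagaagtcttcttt
5xFADTg meninges, second clonotype, TRA of TRAV14D-1 and TRAJ11: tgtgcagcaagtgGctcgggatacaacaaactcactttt

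The alpha chains with the canonical iNKT rearrangement, TRAV11 joined to TRAJ18 with a CDR3 of 15 amino acids, are shown because this V-J pair had the smallest p of the alpha pairs tested between the tissues. They were carried by 165 clonotypes. Of these 157 encoded a single amino acid sequence, in 5 nucleotide forms over the 6 libraries, and the 4 forms with most clonotypes follow. The first and the last of them need no added base.
iNKT-like TRA, 69 clonotypes (21 in meninges): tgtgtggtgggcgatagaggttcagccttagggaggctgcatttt
iNKT-like TRA, 46 clonotypes (14 in meninges): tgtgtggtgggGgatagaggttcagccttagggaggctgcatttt
iNKT-like TRA, 21 clonotypes (9 in meninges): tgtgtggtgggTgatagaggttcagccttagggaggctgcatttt
iNKT-like TRA, 19 clonotypes (6 in meninges): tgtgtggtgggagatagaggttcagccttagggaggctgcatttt
MAIT-like TRA, 15 clonotypes (2 in meninges): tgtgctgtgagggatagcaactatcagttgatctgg

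Mean clone size was smaller in both meninges libraries than in every parenchyma library. A clonotype had a mean of 1.22 paired cells in the NonTg meninges and 1.13 in the 5xFADTg meninges, against 1.75 and 1.71 in NonTg parenchyma 1 and 2 and 1.84 and 1.85 in 5xFADTg parenchyma 1 and 2. Clonotypes seen in 1 cell made up 89.9% of the NonTg (95% exact binomial interval 85.8 to 93.1) and 94.5% of the 5xFADTg meningeal clonotypes (91.4 to 96.7), and 83.3 to 86.0% of those in the parenchyma libraries. These intervals, here and below, reflect counting error alone. The largest clone held 6 cells in the NonTg and 14 in the 5xFADTg meninges, and 39, 94, 71 and 85 cells in the 4 parenchyma libraries.

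Because the parenchyma libraries held more cells, clonotypes were also counted at an equal depth of 349 paired cells, by exact rarefaction (the number expected in a random subset). At that depth the parenchyma gave 236.1 and 226.0 clonotypes in NonTg 1 and 2, and 223.5 and 234.5 in 5xFADTg 1 and 2. The meninges gave 286 in NonTg and 308.5 in 5xFADTg mice. Both meninges libraries lay above all 4 parenchyma libraries, with a mean of 297.2 ± 15.9 (SD, n = 2) against 230.0 ± 6.18 (SD, n = 4). Within genotype the difference was 54.9 clonotypes in NonTg and 79.5 in 5xFADTg mice, 67.2 on average (two-sided exact permutation test within genotype, p = 0.222, adjusted over 27 values p = 0.545). That p is the smallest that the 9 arrangements of the libraries allow, so no value compared in this way could reach 0.05.

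**Figure D1:**
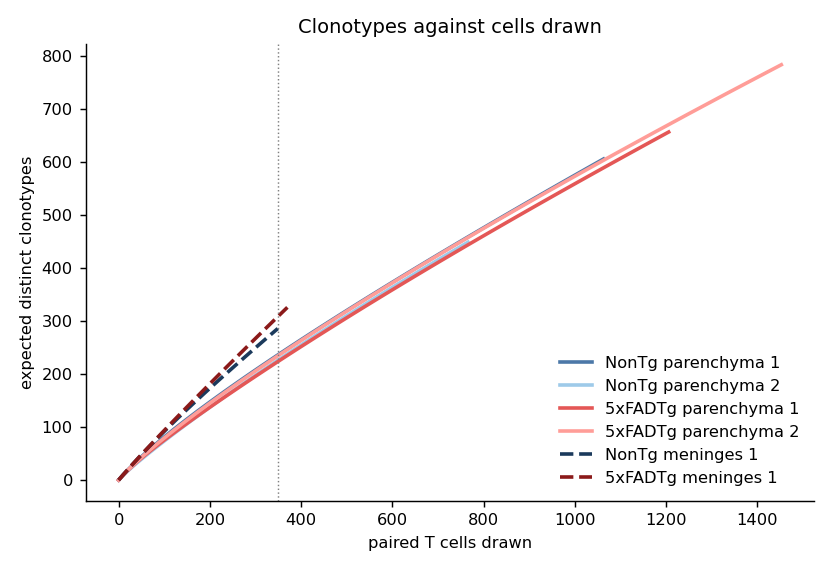
Expected number of distinct clonotypes (vertical axis) against the number of paired T cells drawn at random from a library (horizontal axis), as 1 line per library, dashed for meninges. The dotted line marks 349 cells, where the meninges lines stand at 286 and 308.5 clonotypes and the parenchyma lines at 223.5 to 236.1.

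Cells of expanded clonotypes, those with 2 or more cells, showed the same order. At 349 cells they made up 26.4% of the NonTg and 16.4% of the 5xFADTg meningeal cells, and 42.8%, 42.7%, 43.9% and 42.4% of the parenchymal cells. The parenchyma libraries thus lay within 42.4 to 43.9%, while the meninges libraries differed from each other by more than that range. Any 2 randomly chosen cells shared a clonotype with a probability of 0.206% and 0.234% in the meninges, against 0.675% and 2.45% in NonTg and 1.18% and 0.972% in 5xFADTg parenchyma. The corresponding effective number of clonotypes was 486 and 427 in the meninges and 148, 40.8, 84.5 and 103 in the parenchyma. Sample coverage, the estimated share of the tissue's T cells whose clonotype was seen, was 26.4% and 16.8% in the meninges and 49.6 to 55.1% in the parenchyma. That coverage was taken at the full size of each library, and it grows with the number of cells sampled, so the smaller meninges libraries are not on an equal footing in it. In the expanded share at equal depth and in the probability of sharing a clonotype, both meninges libraries lay outside the parenchymal range (exact permutation test, p = 0.222 each, adjusted p = 0.545).

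Chao1, a lower bound on the number of clonotypes in the sampled tissue, was 2479 in the NonTg and 3963 in the 5xFADTg meninges. In the parenchyma it was 4183 and 2513 for NonTg 1 and 2, and 4198 and 4009 for 5xFADTg 1 and 2, so within each genotype the meninges library lay below both parenchyma libraries, while the 5xFADTg meninges lay inside the range over all 4. The estimate was taken at full library size, with fewer cells in the meninges, and was not tested.

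The largest meningeal clones were also present in the parenchyma of the same genotype. The largest NonTg meningeal clonotype (6 cells) had 34 cells in NonTg parenchyma 1, and the largest 5xFADTg meningeal clonotype (14 cells) was the largest of 5xFADTg parenchyma 2, with 85 cells. The second 5xFADTg meningeal clonotype, with 9 cells, had 38 in 5xFADTg parenchyma 1. The next NonTg meningeal clonotypes, among 6 with 5 cells each, were labelled TRBV14 with TRBJ1-1 and TRBV10 with TRBJ2-7. The former had 11 and the latter 39 cells in NonTg parenchyma 1, where the latter was the largest clone. TRBV10 is a pseudogene in the reference, so that label is doubtful. The next 5xFADTg meningeal clonotype, among 3 with 4 cells, had 4 cells in 5xFADTg parenchyma 2. Of the meningeal clonotypes with 2 or more cells, 24 of 29 in NonTg and 11 of 18 in 5xFADTg mice were found in parenchyma, and of those with 1 cell 42 of 257 and 33 of 308. Without any clonotype found in both tissues of a genotype, 228 cells gave 220 and 221.5 clonotypes in the meninges and 198.7, 192.1, 170.2 and 173.6 in the parenchyma. That filter removed 82.8% and 61.1% of the meningeal clonotypes with 2 or more cells, but 9.92 to 34.1% of such parenchymal ones. It thus favoured smaller clones in the meninges and cannot test the difference.

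The NonTg meninges had 47 clonotypes in common with NonTg parenchyma 1 and 19 with NonTg parenchyma 2, and the 5xFADTg meninges had 26 and 18 in common with its parenchyma libraries. Between the parenchyma libraries of the same genotype 0 were in common. Across genotypes, only the NonTg meninges and 5xFADTg parenchyma 2 had a clonotype in common, with 1. Whether a meninges library held cells of more animals than a parenchyma library is not given in the labels, and the number of animals and the tissue cannot be told apart. With the parenchyma libraries of a genotype pooled in equal parts to 349 cells, 252.8 clonotypes were expected for NonTg and 251.0 for 5xFADTg mice. The meninges then stood higher by 33.2 and 57.5 clonotypes, an average difference smaller than the 67.2 for separate libraries. In the pooled parenchyma, cells of expanded clonotypes made up 36.5% and 37.5%, and 2 cells shared a clonotype with a probability of 0.782% and 0.539%. The direction of all 3 measures was the same as with separate libraries, with no test, since 1 value per tissue and genotype was left.

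Most cells of both tissues had 1 TRB and 1 TRA. This class made up 72.7% of the cells with a productive chain in the NonTg meninges (95% exact binomial interval 68.2 to 76.9) and 72.6% in the 5xFADTg meninges (68.3 to 76.5). In the parenchyma it made up 67.4%, 69.0%, 69.2% and 62.5%, so both meninges libraries lay above all parenchyma libraries, by 5.61 percentage points within genotype (exact permutation test, p = 0.222, adjusted p = 0.545). Cells with 2 or more productive TRB, which can be doublets, were fewer in both meninges libraries, at 5.18% and 4.04% against 6.75%, 5.19%, 7.12% and 5.98%. The NonTg meninges and NonTg parenchyma 2 differed in this share by less than counting error.

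The other classes overlapped between tissues. Cells with 1 TRB and at least 2 TRA can arise when alpha chains are rearranged on both chromosomes, and they had no doublet filter. This class made up 9.41% in the NonTg meninges, 6.17% in the 5xFADTg meninges and 5.98 to 7.49% in the parenchyma. A TRB without TRA was found in 8.47% of NonTg and 15.5% of 5xFADTg meningeal cells, against 15.3%, 15.2%, 14.3% and 22.5% in the parenchyma (exact permutation test, p = 0.444, adjusted p = 0.706). The NonTg meninges lay below and 5xFADTg parenchyma 2 above the other 4 libraries, which lay between 14.3 and 15.5%. A TRA without TRB was found in 4.24% and 1.70% of meningeal and in 3.02 to 3.97% of parenchymal cells.

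**Figure D2:**
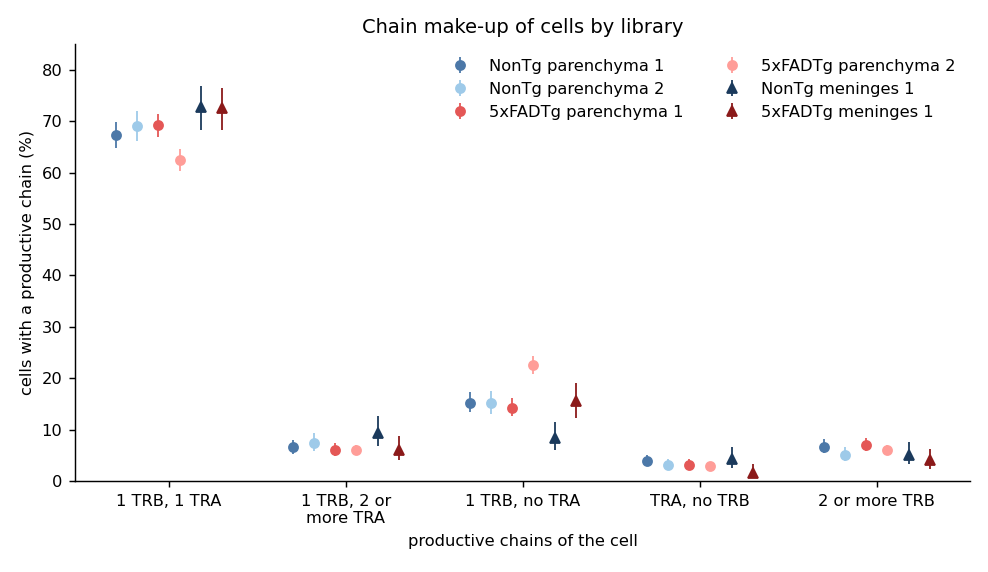
Share of cells (%, vertical axis) in each class of productive chains (horizontal axis), 1 point per library with its 95% exact binomial interval, circles for parenchyma and triangles for meninges. Cells with 1 TRB and 1 TRA stand at 72.7 and 72.6% in the meninges and at 62.5 to 69.2% in the parenchyma, and the TRB-only class is highest in 5xFADTg parenchyma 2, at 22.5%.

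Some TRB-only cells carried the TRB of a paired clonotype of the same library and may belong to that clone, which TRB alone cannot settle. They were 27.8% (10 of 36) and 20.5% (15 of 73) of the TRB-only cells in the meninges and 37.7%, 30.3%, 42.4% and 56.5% in the parenchyma. The share grows with the number of cells sampled and with clone size, which both differed between the tissues, so it was given no test. In 5xFADTg parenchyma 2, 270 of 478 TRB-only cells matched a paired clonotype and 144 an expanded one. In NonTg parenchyma 1 and 2 and 5xFADTg parenchyma 1 the counts were 83 and 74, 46 and 36, and 97 and 79. In the NonTg and 5xFADTg meninges they were 10 and 4, and 15 and 8. Clone sizes count paired cells alone, and the effect of these TRB-only cells on them was not tested. Chain detection differed slightly: the median paired cell had 9 TRB UMIs in each meninges library and 8 in each parenchyma library. For TRA the medians were 75 and 51.5 in the meninges and 49, 60, 50 and 34 in the parenchyma, lowest in the library with most TRB-only cells. The part of UMI depth in the chain classes was not tested. Nonproductive contigs numbered 0.831 and 0.777 per cell in the meninges and 0.708, 0.765, 0.809 and 0.875 in the parenchyma.

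V and J use was compared as the share of clonotypes that carry a segment, so that a large clone counts once. No segment was called by edgeR's quasi-likelihood test with genotype as covariate, out of 119 tested. At an adjusted p under 0.05 percent called was 0 in either direction, and 7 segments had an unadjusted p under 0.05 (3 higher in meninges, 2.52%, and 4 lower, 3.36%). DESeq2 also called 0 and had 1 with an unadjusted p under 0.05. Both meninges libraries lay above all parenchyma libraries for 8 segments (6.72% of those tested) and below all for 10 (8.4%). The median log2 difference over all segments was -0.0074.

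TRAV11, the V segment of iNKT alpha chains (chr14:53519303-53519859 on the plus strand for the copy without a letter, GENCODE M21 on GRCm38), had the smallest p. It was used by 5.59% of NonTg meningeal clonotypes and 11.7% of 5xFADTg ones. In the parenchyma it was used by 2.81% and 3.34% in NonTg 1 and 2 and by 4.11% and 7.40% in 5xFADTg 1 and 2. Each meninges library was above both parenchyma libraries of its genotype, but NonTg meninges was below 5xFADTg parenchyma 2. The log2 fold change was 0.95 (SE 0.26, edgeR adjusted p = 0.222), and the adjusted p lay between 0.0118 and 0.996 over the alternative settings. It was under 0.05 with only chains of at least 2 UMIs (log2 fold change 1.02, adjusted p = 0.0119), without the clonotypes found in both tissues (1.14, 0.0118) and with TRAV copies kept apart (0.95, 0.0409). Leaving out the clonotypes of both tissues removed 23.1% and 13.5% of meningeal clonotypes but 2.30 to 7.76% of parenchymal ones. The tissues are therefore not on an equal footing in that setting.

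TRAJ18, its J partner in iNKT cells (chr14:54200777-54200842), was used by 6.64% and 12.9% of meningeal clonotypes and by 4.46%, 4.45%, 4.72% and 8.55% of parenchymal ones. Its log2 fold change was 0.80 (SE 0.25, edgeR adjusted p = 0.296), and -0.20 after the iNKT-like and MAIT-like clonotypes were left out. The joined pair TRAV11 with TRAJ18 accounted for 54 of 612 meningeal clonotypes and 111 of 2496 parenchymal ones. Its shares were 5.59% and 11.7% in the meninges and 2.64%, 3.12%, 4.11% and 6.89% in the parenchyma, a log2 fold change of 1.03 (SE 0.33, edgeR adjusted p = 0.201). The pair passed the threshold when either 5xFADTg parenchyma library was left out, with a log2 fold change of 0.82 without the first and 1.28 without the second.

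No iNKT-like clonotype was seen in more than 1 meningeal cell: 16 clonotypes had 16 cells in NonTg and 38 had 38 in 5xFADTg mice. In the parenchyma, 16, 14, 27 and 54 clonotypes had 16, 14, 56 and 56 cells. The 4 nucleotide forms printed above were each found in both tissues. Among their beta partners, TRBV13-2, the beta segment most used by mouse iNKT cells, was paired with 8 of 16 and 18 of 38 meningeal iNKT-like alphas and with 5 of 16, 10 of 14, 12 of 27 and 28 of 54 parenchymal ones. MAIT-like alphas (TRAV1 with TRAJ33 and a CDR3 of 12 amino acids) were found in 2 of 286 NonTg meningeal clonotypes and in 0 of 326 in 5xFADTg, which allows a share of up to 0.920%. The parenchyma libraries held 6, 4, 4 and 7 of them, shares of 0.609 to 0.990%, which at this depth cannot be told from the meninges.

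Of the segments next in order, TRAJ9 was higher and TRAV3-3, TRAJ53 and TRAJ40 were lower in both meninges libraries than in every parenchyma library. TRAJ9 was used by 4.55% and 3.37% of meningeal clonotypes and by 1.82%, 1.78%, 2.74% and 2.68% of parenchymal ones (log2 fold change 0.76, SE 0.34). That change was 0.32 without the NonTg meninges and 1.32 without the 5xFADTg meninges. TRAV3-3 was used by 3.50% and 3.99% in the meninges and by 5.28%, 6.01%, 6.39% and 6.63% in the parenchyma (log2 fold change -0.69, SE 0.26). TRAJ53 rested on 3 meningeal clonotypes against 40 parenchymal ones (-1.69, SE 0.69), and TRAJ40 on 10 against 79 (-0.97, SE 0.39). All 4 had an edgeR adjusted p of 0.637, so none passed the test.

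**Figure D3:**
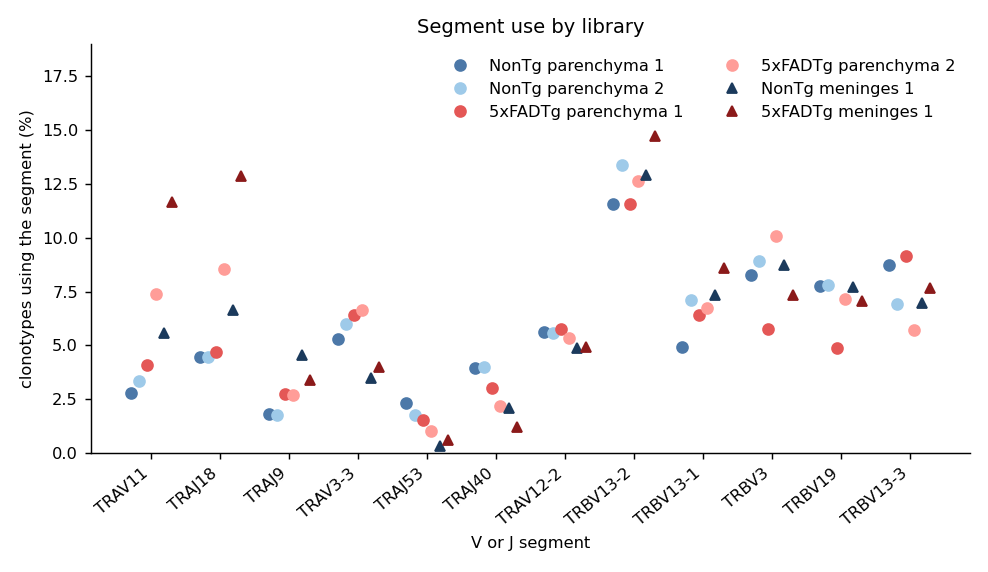
Share of clonotypes (%, vertical axis) that use each of 12 V or J segments (horizontal axis), 1 point per library, circles for parenchyma and triangles for meninges. TRAV11 reaches 5.59 and 11.7% in the meninges, while TRBV3, TRBV19 and TRBV13-3 have the meninges libraries within the parenchymal range.

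Of the segments most used by meningeal clonotypes, TRBV13-2 led among beta V segments (12.9% and 14.7% in the meninges, 11.6 to 13.4% in the parenchyma; chr6:41121396-41121832), followed by TRBV13-1, TRBV3, TRBV13-3 and TRBV19. TRBV13-1 was the exception in that both meninges libraries (7.34% and 8.59%) lay above all parenchyma libraries (4.95 to 7.13%; log2 fold change 0.35, SE 0.23). TRBV3, TRBV13-3 and TRBV19 differed by -0.051, -0.048 and 0.10 on the log2 scale, with SEs of 0.25, 0.25 and 0.24. TRBJ2-7 was the leading beta J segment in the meninges, at 23.4% and 20.2% against 18.0 to 20.5%, and TRBJ1-1 (log2 fold change 4.9e-05) and TRBJ2-5 (-0.17) followed. Among alpha V segments TRAV16, TRAV12-2, TRAV6-7 and TRAV14-3 followed TRAV11, with log2 fold changes of 0.067, -0.18, 0.0043 and 0.16. TRAV6-6 tied with TRAV14-3 at 25 meningeal clonotypes and is named for that tie, after its values were seen: it was used by 4.20% and 3.99% in the meninges and 4.87 to 5.99% in the parenchyma (-0.35, SE 0.27). TRAJ31 and TRAJ22 followed TRAJ18, with log2 fold changes of 0.14 and -0.25.

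Segment lists by role gave no call in either direction, as did the table as a whole. Of 7 iNKT-related segments 4 were higher and 3 lower (median log2 difference 0.18), and of 6 MAIT-related segments, 3 of which are in the first list too, 3 and 3 (0.026). TRBV13-2, a member of both lists and the one at the median of the first, stood at -0.30 instead of 0.18 when the joint TRBV12-2 and TRBV13-2 label was kept apart. Among the TRBJ1 cluster 5 of 6 were higher (median 0.12), and among the TRBJ2 cluster 3 of 6 (0.011). TRBJ1-1 was higher by a negligible amount that reversed in several alternatives. For 0 of the TRBJ1 segments both meninges libraries lay above all parenchyma libraries, and for 1 both lay below. Along the alpha J locus, the 22 segments nearer to the V genes (TRAJ61 to TRAJ31) divided into 11 and 11 (median 0.019) and the 21 farther ones (TRAJ30 to TRAJ2) into 9 higher and 12 lower (-0.20). The constant gene TRBC1 was used by 32.3% and 37.2% of meningeal and 32.8%, 34.0%, 33.7% and 36.5% of parenchymal clonotypes. The mean distance between the joined alpha V and J segments, with labelled D and N copies at their own positions, was 874.6 and 897.5 kb in the meninges and 865.2 to 884.3 kb in the parenchyma.

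The number of different V and J pairs did not order the libraries by tissue when equal numbers of clonotypes were drawn. At 286 clonotypes, 140 and 143.5 different TRBV-TRBJ pairs were expected in the meninges and 139.4 to 144.0 in the parenchyma. For TRAV-TRAJ pairs the numbers were 237 and 226.6 against 227.9 to 239.6, and for TRAV-TRBV pairs 223 and 201.3 against 208.9 to 221.4. The 5xFADTg meninges, which held most iNKT-like clonotypes for its size, had the lowest count of both alpha pairings.

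No TRBV-TRBJ pair out of 128 tested was called by edgeR's quasi-likelihood test (percent called 0; 2 pairs, 1.56%, at an unadjusted p under 0.05, both higher in meninges) and DESeq2 called 0 and had 0 below an unadjusted 0.05. Both meninges libraries lay above all parenchyma libraries for 8 pairs (6.25%) and below all for 5 (3.91%). The pair of TRBV13-2 with TRBJ1-3 was used by 2 and 6 meningeal clonotypes (0.699% and 1.84%) and by 1, 2, 2 and 5 parenchymal ones (0.165%, 0.445%, 0.304% and 0.638%), a log2 fold change of 1.68 (SE 0.65, edgeR adjusted p = 0.986). TRBV29 with TRBJ2-7 was used by 8 and 6 meningeal and by 3, 3, 13 and 4 parenchymal clonotypes (log2 fold change 1.31), so 5xFADTg parenchyma 1 overlapped the meninges. The change was 0.62 without the NonTg meninges, 2.06 without 5xFADTg parenchyma 1 and 2.25 without the 5xFADTg meninges. TRBV2 with TRBJ2-2 was used by 4 and 2 against 4, 0, 1 and 0 clonotypes. On the lower side, TRBV13-1 with TRBJ2-1 had 1 meningeal and 20 parenchymal clonotypes, TRBV16 with TRBJ2-5 had 1 and 18, and TRBV13-2 with TRBJ1-5 had 0 and 10. The pairs with most meningeal clonotypes were TRBV13-2 TRBJ2-7 (15), TRBV29 TRBJ2-7 (14), TRBV13-1 TRBJ2-7 (12), TRBV3 TRBJ2-7 (12) and TRBV13-2 TRBJ2-5 (11), 4 of which carry TRBJ2-7.

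Alpha pairs were spread too thinly for most to be tested: 1076 different TRAV-TRAJ pairs were seen and 18 reached 10 clonotypes. Of these edgeR's quasi-likelihood test called 0 (percent called 0), with 3 at an unadjusted p under 0.05 (1 higher, 5.56%, and 2 lower, 11.1%), and DESeq2 called 0 and had 1 below an unadjusted 0.05. Apart from TRAV11 with TRAJ18, the lower pairs were TRAV12-2 with TRAJ30 and TRAV3-3 with TRAJ7, each with 0 of 612 meningeal clonotypes, and each with 11 of 2496 in the parenchyma, and TRAV3-3 with TRAJ22 (1 and 20). A count of 0 in the meninges allows a share of up to 0.490%, above the parenchymal share of 0.441% of either pair, so no fold is given. TRAV6-6 with TRAJ34 (4 and 7 clonotypes) and TRAV6-5 with TRAJ30 (3 and 7) were the next on the higher side, with log2 fold changes of 1.17 (SE 0.79) and 0.74 (SE 1.02). Among pairs with too few clonotypes to test, TRAV12-3 TRAJ15 and TRAV6-7 TRAJ12 had 4 meningeal clonotypes each and TRAV10 TRAJ31 had 3.

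Of 726 TRAV-TRBV combinations, 61 were tested and edgeR's quasi-likelihood test called 0 (percent called 0), with 3 at an unadjusted p under 0.05 (2 higher, 3.28%, and 1 lower, 1.64%). DESeq2 called 0 and had 0 below an unadjusted 0.05. TRAV11 with TRBV13-1, a combination of iNKT segments, was used by 4 and 7 meningeal clonotypes (1.40% and 2.15%) and by 4, 3, 3 and 8 parenchymal ones (0.660%, 0.668%, 0.457% and 1.02%), a log2 fold change of 1.30 (SE 0.48, edgeR adjusted p = 0.516). It was higher in both meninges libraries than in all parenchyma libraries, which held for 5 combinations (8.2%), while the reverse held for 8 (13.1%). TRAV16 with TRBV13-2 was used by 5 and 3 against 2, 4, 4 and 2 clonotypes, and TRAV14-3 with TRBV13-2 by 2 and 3 against 1, 1, 4 and 1. TRAV14-3 with TRBV3 was used by 0 meningeal and by 4, 6, 2 and 2 parenchymal clonotypes (SE of the log2 fold change 1.95, edgeR adjusted p = 0.516). With 3 counts over both meninges libraries taken as the limit, up to 0.490% is allowed. The pooled parenchymal share was 0.561%, itself with counting error, so no fold is given. TRAV13-1 with TRBV3 and TRAV14-1 with TRBV13-2 were also at 0 in the meninges, with 12 parenchymal clonotypes each.

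The mean TRB CDR3 had 14.1 amino acids in both meninges libraries and 14.1, 13.9, 14.0 and 14.0 in the parenchyma libraries (exact permutation test, p = 0.667, adjusted p = 0.857). The mean TRA CDR3 had 13.6 and 13.8 in the meninges and 13.6, 13.6, 13.6 and 13.8 in the parenchyma (p = 0.889 by the exact permutation test, adjusted p = 0.960). Without the iNKT-like and MAIT-like clonotypes the mean TRA CDR3 had 13.57 and 13.59 amino acids in the NonTg and 5xFADTg meninges, against 13.63 and 13.62 in NonTg and 13.60 and 13.74 in 5xFADTg parenchyma. Both meninges libraries then lay below all 4 parenchyma libraries, and the within-genotype difference was -0.0635 (p = 0.222 by the exact permutation test, the smallest it can give). The SD of length within a library was 1.35 and 1.42 for TRB and 1.40 and 1.43 for TRA in the meninges, inside or close to the parenchymal ranges of 1.38 to 1.50 and 1.37 to 1.44.

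The junctions, which show how much a chain departs from its germline segments, differed little. A TRB junction had a mean of 10.2 and 10.4 bases without germline match in the meninges and 10.2, 9.85, 9.97 and 10.1 in the parenchyma, D segments included (exact permutation test, p = 0.444, adjusted p = 0.706). A TRA junction had 2.67 and 2.64 in the meninges and 2.71, 2.73, 2.71 and 2.66 in the parenchyma, a difference of -0.046 bases (exact permutation test, p = 0.222, adjusted p = 0.545). The direction turned without the iNKT-like and MAIT-like clonotypes, to 2.82 and 2.92 bases against 2.80, 2.82, 2.81 and 2.85, a difference of 0.0547. TRA junctions with 0 such bases made up 19.9% and 16.9% of meningeal clonotypes and 16.2%, 17.6%, 14.8% and 18.0% of parenchymal ones.

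Public alpha chains, here those whose CDR3 amino acid sequence was also found in the parenchyma of the other genotype, were used by 13.3% of NonTg and 15.6% of 5xFADTg meningeal clonotypes. In the parenchyma they were used by 12.4% and 12.9% in NonTg and by 9.74% and 14.4% in 5xFADTg mice, a within-genotype difference of 2.10 percentage points (exact permutation test, p = 0.222, adjusted p = 0.545). The difference was 0.640 points without the 5xFADTg meninges, 0.935 without 5xFADTg parenchyma 1, 3.27 without 5xFADTg parenchyma 2 and 3.57 without the NonTg meninges. This direction turned as well without the iNKT-like and MAIT-like clonotypes, to 7.46% and 4.86% in the meninges against 9.08%, 9.28%, 5.75% and 7.47%, a difference of -1.73. With each distinct CDR3 counted once the difference was -0.773. With the invariant receptors included, public alphas had fewer non-germline bases than the other alphas in every library. They had 0.789 and 0.804 against 2.96 and 2.99 in the meninges and 0.929 to 1.50 against 2.88 to 2.96 in the parenchyma. The main iNKT-like sequence made up 14 of 38 and 37 of 51 public alphas in the meninges. In the parenchyma it made up 16 of 75, 13 of 58, 25 of 64 and 52 of 113. Its part in the contrast was not tested. Public beta chains were rarer, at 1.75% and 0.920% of meningeal and 1.22 to 2.04% of parenchymal clonotypes.

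**Figure D4:**
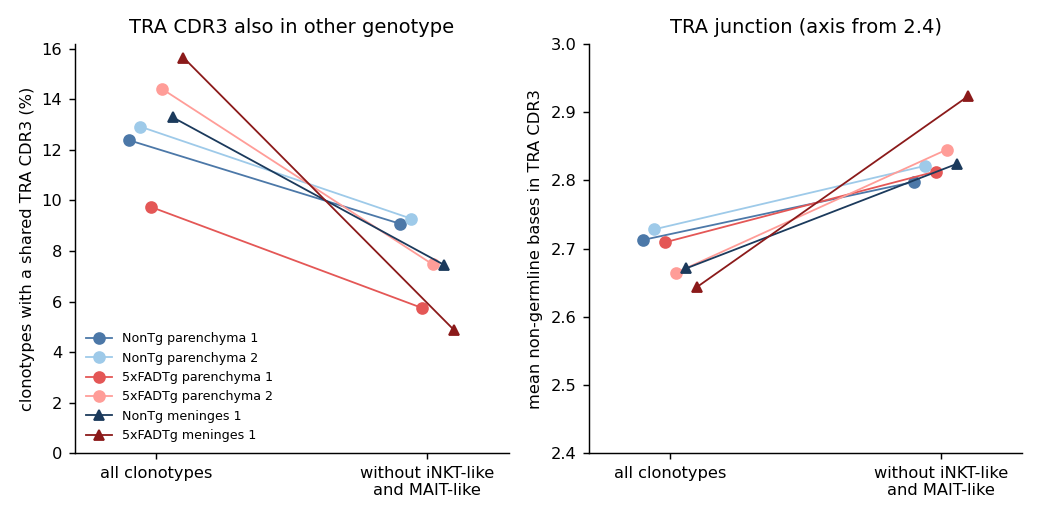
Left, share of clonotypes (%) whose TRA CDR3 was also found in the parenchyma of the other genotype, and right, mean number of non-germline bases in the TRA CDR3 (axis from 2.4), each for all clonotypes and without the iNKT-like and MAIT-like ones. Each line is 1 library, circles for parenchyma and triangles for meninges. The line of the 5xFADTg meninges is the steepest, from 15.6 to 4.86% and from 2.64 to 2.92 bases.

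The amino acids of the CDR3 core, without the first 4 and last 4 residues, which mostly come from the V and J ends, were counted over clonotypes. Of 38 residues and chains tested, edgeR's quasi-likelihood test called 0 (percent called 0), with 2 at an unadjusted p under 0.05, both lower in meninges (5.26%), and DESeq2 called 0 and had 1 below an unadjusted 0.05. Both meninges libraries lay above all parenchyma libraries for 3 (7.89%) and below all for 5 (13.2%). Lysine in the TRB core had the lowest log2 fold change and was lower in both meninges libraries than in every parenchyma library, at 0.518% and 0.303% of residues against 0.810%, 0.868%, 0.664% and 0.802%, a log2 fold change of -0.95 (SE 0.44, edgeR adjusted p = 0.790). It rested on 15 meningeal residues against 117. Tyrosine in the TRA core made up 7.12% and 6.56% in the meninges and 7.18 to 8.92% in the parenchyma (-0.20, SE 0.096). Histidine in the TRB core (-0.66, SE 0.44) overlapped between the tissues.

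On the higher side, glycine, the most flexible residue and frequent in D segments, made up 23.7% and 23.2% of the TRB core in the meninges and 22.2%, 21.0%, 22.3% and 21.4% in the parenchyma. Its log2 fold change was 0.11 (SE 0.066, edgeR adjusted p = 0.790), and the libraries of the tissues did not overlap. Proline in the TRB core (0.25, SE 0.14) and arginine in the TRA core (0.21, SE 0.15) overlapped, and the value for arginine was -0.11 without the iNKT-like and MAIT-like clonotypes. Mean hydropathy of the core (Kyte-Doolittle scale) was -1.15 and -1.11 for TRB and -1.22 and -1.19 for TRA in the meninges, within the parenchymal ranges of -1.19 to -1.06 and -1.28 to -1.16. Mean net charge per TRB core was -0.364 and -0.466 in the meninges and -0.393, -0.454, -0.298 and -0.379 in the parenchyma. For TRA it was -0.210 and -0.166 against -0.244, -0.183, -0.294 and -0.214.

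**Figure D5:**
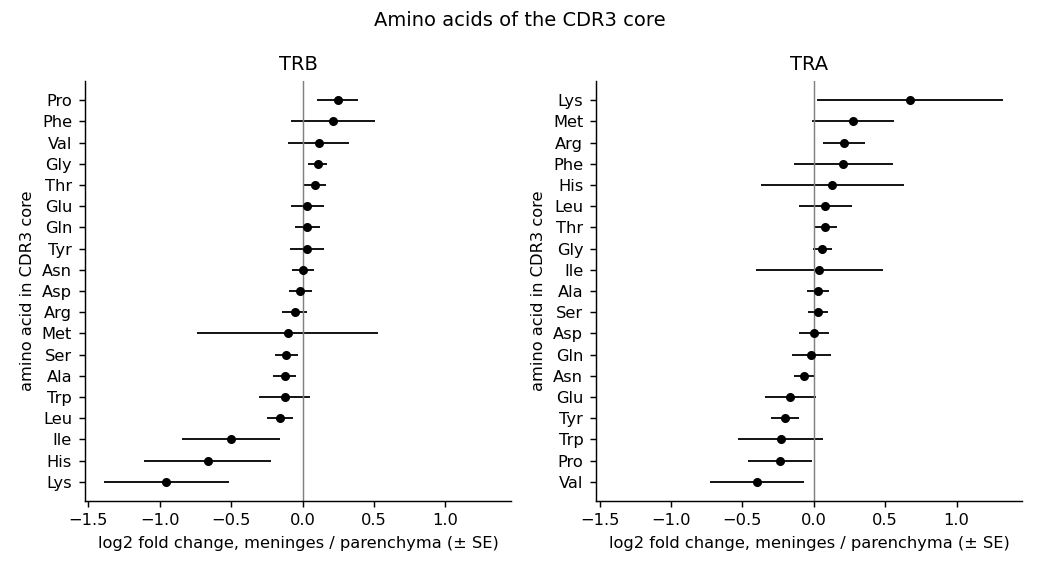
Log2 fold change of each amino acid of the CDR3 core between meninges and parenchyma (horizontal axis, bars are the standard error of the edgeR fit), for TRB on the left and TRA on the right. Lysine in TRB lies at -0.95 and glycine in TRB at 0.11, and none of the 38 passed the test.

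Whether the tissue difference in segment use depended on genotype was tested as an interaction over the 119 segments. Percent called by edgeR's quasi-likelihood test was 0, with 2 segments at an unadjusted p under 0.05 and a smallest adjusted p of 0.983.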

How the data were processed

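The deposited tables list each assembled contig with its segments, CDR3 and unnormalised counts of reads and UMIs, per the file headers. The tools named in the submitters' processing notes are Cell Ranger 6.0 with the build mm10, while any filter is not given in the sources used. Libraries were made with a 10x Genomics immune profiling kit, per the labels' protocols. Cells without TRB, without TRA or with 2 or more TRB were left out of clonotypes, and no other doublet filter was run. D and N copies of TRAV segments were collapsed, and the joint label TRBV12-2+TRBV13-2 (336 clonotypes, 293 of them with the TRBV13-2 start of the CDR3) was counted as TRBV13-2. The label TRBV10 (132 clonotypes), a pseudogene in the reference, was left out of TRB junctions. Of their CDR3s, 109 begin with bases that germline TRBV4 holds and TRBV10 lacks, while 0 clonotypes were labelled TRBV4. Germline segments came from GENCODE M21 (GRCm38).

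Single values were compared by two-sided exact permutation tests over libraries within genotype (Benjamini-Hochberg over 27). Segments, pairs and residues with at least 10 clonotypes or residues were fitted with edgeR 4.0.16 (R 4.3.3, limma 3.58.1) over the clonotypes or core residues of a library, and with DESeq2 1.42.0 as an alternative. Rarefaction, the expanded share, junction matching, the permutation test and the edgeR fits were tested on simulated data. In these, most changes placed in the 3 tables of segment pairs were not recovered. Some of the smaller changes placed in the table of V and J segments were missed too. Other software was matplotlib 3.10.9, scipy 1.17.1, numpy 2.4.6, pandas 2.3.3 and Python 3.11.15.

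Named features were those past the threshold, the 3 smallest p in each direction of a table, the 5 TRBV, 5 TRAV, 3 TRBJ and 3 TRAJ segments and the 5 TRBV-TRBJ and TRAV-TRAJ pairs with most meningeal clonotypes, and the 3 largest meningeal clonotypes. The members and lists were chosen with earlier results of these data known. Alternatives were another clonotype definition, 2 UMIs per chain, another depth, each cell counted once, no invariant receptors, other scalings and filters, and each library left out. Leaving out clonotypes of both tissues, pooling the parenchyma libraries, distinct CDR3s or no invariant receptors for public chains and keeping the joint label apart were chosen after seeing the data.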

Additional observations from a re-analysis of the deposited data

Results flagged for a closer look

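In 2 of the 27 single values the highest of the 4 parenchyma libraries stood apart from the other 3 by more than a 95% limit for single outlying values, a gap that chance gives in about 1 of 20 groups and so in some of 27. Both were 5xFADTg parenchyma 2, with 22.5% of cells having a TRB and no TRA and a mean TRA CDR3 length of 13.81 amino acids. That library also had the lowest median TRA UMIs, 34, and the part of this in the TRB-only share was not tested. Of its 478 TRB-only cells 270 matched a paired clonotype and 144 an expanded one, and the part of this was not tested either.

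In 5 of the 27 single values the meninges library lay above both parenchyma libraries of its own genotype in 1 genotype and below both in the other, though it could still lie inside the range over all 4. The difference between genotypes was not tested in any of the 5, since each rests on 1 meninges library per genotype. With so few libraries such opposite orders also arise at random, and 5 of 27 was not shown to exceed chance. The value of meninges minus parenchyma in 5xFADTg mice less that in NonTg mice was -2.13 percentage points for cells with TRA and no TRB, -0.188 for mean TRB core charge, -0.853 percentage points for public TRB CDR3s and -0.159 for nonproductive contigs per cell. It was 3.26 percentage points for the share of TRBC1.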

How the results depend on the processing

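The 4 measures of clone size kept their direction under every alternative run for them: another clonotype definition, chains of at least 2 UMIs, another depth or no thinning, pooled parenchyma (3 of the 4), no clonotypes of both tissues and each library left out. Leaving out clonotypes of both tissues favours that direction by itself, since it removes more of the expanded meningeal clonotypes, and is no test of it. Sample coverage, 1 of the 4, and the alternative without thinning were taken at full library size. The smaller meninges libraries are not on an equal footing in either. With 1 library left out the clonotype difference at equal depth was 54.9 to 85.1 and the difference in expanded share -26.9 to -16.3 points. The difference in the probability of a shared clonotype was -1.54 to -0.656 points, smallest without NonTg parenchyma 2, and at 100 cells the clonotype difference was 15.3, with fewer cells drawn. No paired analysis was possible because the meninges libraries carry no replicate number in the labels and each genotype has 1 of them. Of the values that answer a comparison, 330 alternatives kept direction and side of the threshold, 26 reversed and 7 counts of calls moved. For the 27 single values only the direction could change, since their lowest exact permutation p over the alternatives was 0.133. Among named features 667 kept both, 43 reversed and 9 passed the threshold, of which all were TRAV11, TRAJ18 or their pair. The causes of the changes below were not tested.

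The count of called segments was 2 with chains of at least 2 UMIs, 2 without clonotypes of both tissues (TRAV11 and TRAJ18 each time) and 1 with TRAV copies apart. The count of called TRAV-TRAJ pairs was 1 with chains of at least 2 UMIs, 1 without clonotypes of both tissues, and 0 to 1 with 1 library left out. Leaving out clonotypes of both tissues removed a larger share of the meningeal clonotypes, so the tissues are not on an equal footing in those calls.

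With each cell counted once the difference was -0.0147 for the SD of TRA length, 0.0435 for TRA non-germline bases and -2.95 points for TRA junctions with 0 such bases. In log2 it was 0.079 for TRBV3, 0.079 for TRBV13-3, -0.15 for TRBV19, 0.065 for TRBJ2-5, -0.056 for TRAJ31, -0.20 for TRAV6-6 TRAJ34 and -0.91 for TRAV6-5 TRAJ30. Without iNKT-like and MAIT-like clonotypes it was -0.0635 for mean TRA length, 0.0547 for TRA non-germline bases, -0.0103 for TRA hydropathy and -1.73 points for public TRA. In log2 it was -0.20 for TRAJ18, 0.015 for TRBV3, 0.024 for TRBV13-3, -0.0083 for TRBJ1-1 and -0.11 for TRA arginine. Without clonotypes of both tissues it was 0.041 for TRBV13-3, -0.049 for TRBV19, -0.21 for TRAV16, -0.061 for TRAV6-7 and -0.053 for TRBJ1-1. Other reversals were 0.00286 for TRB core charge with 3 residues left off each end, -0.773 points for public TRA over distinct CDR3s, -0.30 for TRBV13-2 with the joint label apart, 0.010 for TRBV13-3 with chains of at least 2 UMIs, -0.00035 for TRAV16 with copies apart and -0.0025 for TRBJ1-1 without the genotype covariate.

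With 1 library left out at a time, the values that reversed ranged from -1.43 to 0.704 for TRA-only cells, -0.0302 to 0.0521 for mean TRA length, -0.0155 to 0.0199 for the SD of TRA length, -0.0395 to 0.0258 for TRB hydropathy and -0.00377 to 0.0571 for TRA hydropathy. They ranged from -0.128 to 0.0599 for TRB charge, -1.14 to 2.11 for TRBC1, -0.709 to 0.144 for public TRB and -0.0654 to 0.0938 for nonproductive contigs. In log2 the ranges were -0.21 to 0.17 for TRBV3, -0.22 to 0.10 for TRBV13-3, -0.016 to 0.21 for TRBV19, -0.12 to 0.25 for TRAV16, -0.41 to 0.36 for TRAV6-7, -0.24 to 0.56 for TRAV14-3, -0.059 to 0.072 for TRBJ1-1, -0.062 to 0.35 for TRAJ31, -0.48 to 0.29 for TRBV13-2 TRBJ2-7, -0.22 to 0.67 for TRBV3 TRBJ2-7, -0.0073 to 0.37 for TRA arginine and -1.48 to 0.33 for TRB histidine. With 612 meningeal clonotypes in 2 libraries, pairs of few clonotypes carry wide errors, and a meninges library left out leaves 1 that is assumed to vary like the others.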
